A study of Homo sapiens with 24 samples.

Results

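The replication-independent variant histone genes H2AFZ, H2AFV, H2AFX, H2AFY, H2AFJ, H3F3A, H3F3B, H1F0, H1FX and CENPA were examined in HEK293T cells, a line derived from human embryonic kidney. They were chosen by gene name, and all 10 were found among the 58884 genes listed in each table of RNA-seq values. RNA was measured in 10 libraries, in batches that the labels number 1 and 2. Batch 1 holds 2 libraries of wild type cells (WT) and 2 of cells in which both alleles of the endogenous SETD2 gene had been disrupted (KO). Batch 2 holds 2 further KO libraries, 2 of KO cells expressing full-length SETD2 (SETD2 FL) and 2 of KO cells expressing residues 1404 to 2564 of the protein (SETD2 C, N3 in the labels). All groups of batch 2 therefore lack intact endogenous SETD2. Both constructs were introduced by transfection and driven by the CMV promoter. The WT libraries and the KO libraries of both batches are labelled untreated. In comparisons of a construct with KO the transfection therefore cannot be told apart from the SETD2 it delivered. Nothing in the labels says that the libraries of a group came from separate cultures, and p-values then measure only the spread between these libraries, which may be technical.

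Nucleosomes wrap DNA around an octamer of core histones, and a linker histone binds where the DNA enters and leaves. Bulk histones are made in S phase from clustered genes whose mRNAs end in a stem-loop without a poly(A) tail. Synthesis of variant histones is not confined to S phase. They come from dispersed genes, mostly as polyadenylated mRNAs, and are exchanged into chromatin by dedicated chaperones. SETD2 is the enzyme that trimethylates lysine 36 of histone H3, a residue that the variant H3.3 shares with the bulk H3 proteins. The comparisons ask how transcripts of the variant histones differ when SETD2 is lost, restored, or supplied as its C-terminal segment.

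Values are TPM, a transcript abundance that is relative to transcript length and to the sum over the library. Levels of different genes can be compared on this scale, but the depth of a library cannot be derived from it. In bulk RNA, a change in the number of cells of one kind and a change in RNA per cell cannot be told apart. The SETD2 transcript stood at 12.6 and 14.8 TPM in the libraries labelled WT and at 16.2 and 16.3 in those labelled KO (adjusted p = 0.408, limma with Benjamini-Hochberg adjustment). It was not lower in the libraries labelled KO, so any direction given for WT against KO relies on the labels. In batch 2 KO held it at 12.0 and 12.2 TPM, the SETD2 FL libraries at 439 and 422 and the SETD2 C libraries at 1329 and 1264. Of the markers of HEK293 cells, NEFL, NEFM, INA and VIM were present in every group, while PAX2 was low, with group means from 1.19 to 1.96 TPM. Of the markers of other cell types, PTPRC and INS were at or near 0, ALB had group means of at most 0.29 TPM, and COL1A1 and EPCAM were at most 11.4 and 3.32 TPM. With SETD2 C, 3 of the 5 HEK293 markers and both of the other markers that could be tested were higher than in KO, as were 21.1% of all genes tested. The part of these markers in the results for the histone genes was not tested. The share of TPM on mitochondrially encoded genes also moved with the groups: it was 23.2% and 14.1% in WT and at most 12.4% in KO of batch 1, and in batch 2 it was 7.04% and 6.23% in KO, 10.9% and 7.79% in SETD2 FL libraries and 2.93% and 3.37% in SETD2 C libraries.

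H3F3A and H3F3B encode the same H3.3 protein from unlike messages. H3F3A lies on chromosome 1 of GRCh38 (226061851 to 226072019, plus strand) and H3F3B on chromosome 17 (75776434 to 75785893, minus strand). Each coding sequence has 408 bases, of which 88 differ, and 79 codons are written differently, yet none of the 135 residues of the mature protein differs. Codons 36 to 50 are shown because they start with the lysine that SETD2 methylates, whose codon is in capitals. Residues are counted without the first methionine, and both stretches are spliced across the first and second coding exons (chr1:226064460-226065680 and chr17:75778939-75779066, with the intron left out).
H3F3A: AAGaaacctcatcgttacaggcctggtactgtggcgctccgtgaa
H3F3B: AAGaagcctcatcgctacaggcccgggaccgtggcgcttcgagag
In these 45 bases, 8 differ, each in another codon, and no residue changes. Reads that cover such bases can be told apart between the pair. H3F3A, however, has a processed pseudogene, H3F3AP4 (H3P6 in GENCODE 44, chromosome 2), that matches its coding sequence at all 408 bases (100% identity), so reads from the coding part cannot be told apart. H3F3AP4 was listed at 115 to 183 TPM over the 10 libraries, which was 12.5% to 18.6% of the sum of H3F3A and H3F3AP4. The level of H3F3A is uncertain by that amount. Of the other pseudogenes of H3F3A, H3F3B, H2AFZ and H2AFV, none exceeded 10.9 TPM.

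The 10 genes spanned a wide range of levels, and their order was nearly the same in the groups of a batch. In KO of batch 2, H2AFZ, encoding H2A.Z.1, a variant placed at promoters, was highest at 932 ± 16.1 TPM (SD, n = 2). It was followed by H3F3A at 722 ± 17.4 and H3F3B at 518 ± 49.1. The linker histone genes H1FX and H1F0 came next, at 247 ± 20.5 and 212 ± 2.37 TPM. Below them stood H2AFV, encoding H2A.Z.2, at 149 ± 3.69, H2AFY, encoding macroH2A1 with its large globular macro domain, at 136 ± 0.028, and H2AFX, encoding H2A.X, which is phosphorylated around DNA breaks, at 74.4 ± 4.69. CENPA, encoding the H3 variant that marks centromeres, and H2AFJ, encoding H2A.J, a variant that differs from bulk H2A mainly at its C terminus, were lowest at 24.9 ± 0.31 and 21.3 ± 0.64 TPM. No neighbours in this order overlapped between their libraries in KO of batch 2. With SETD2 FL the order was the same, but the ranges of H2AFV and H2AFY overlapped. With SETD2 C, H1F0 stood above H1FX, and H2AFJ and CENPA overlapped at the foot of the order. In batch 1 the highest gene was H3F3A (846 ± 31.8 TPM in KO), followed by H2AFZ (551 ± 18.3), and H2AFY stood next after H3F3B (218 ± 4.58). KO libraries of the batches thus differed in level, most plainly for H1FX, at 102 ± 5.85 TPM in batch 1 against 247 in batch 2. The batches were made into separate tables, and all tests were kept within a batch.

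**Figure D1:**
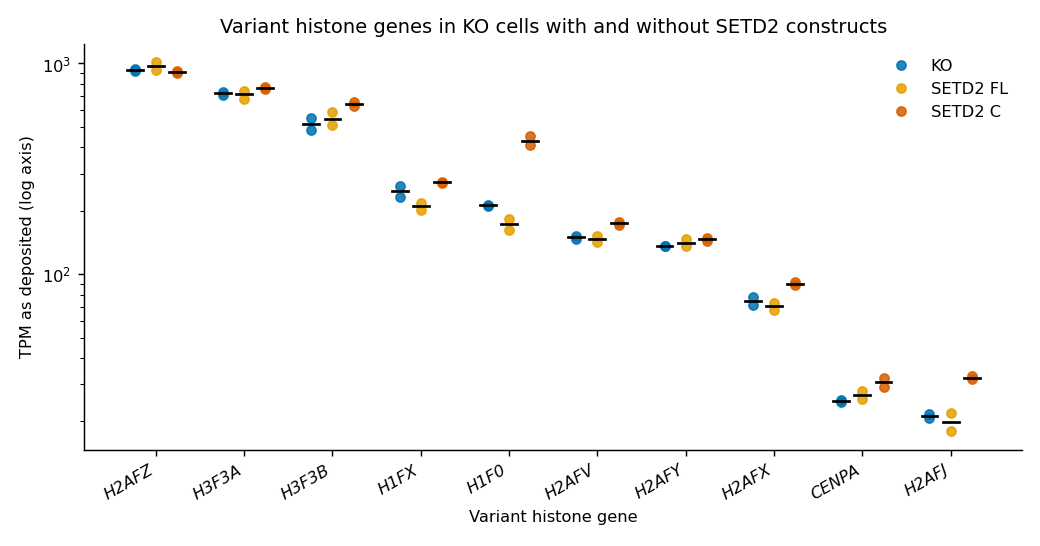
TPM as deposited (log axis) of the 10 variant histone genes in the 6 libraries of batch 2, with genes ordered by their mean in KO; each point is a library and each bar the mean of a group (n = 2). Both SETD2 C libraries (408 and 452 TPM) stood far above both KO libraries (211 and 214 TPM) for H1F0. They also stood above both KO libraries for every other gene except H2AFZ, whose groups lay close together. These TPM are unscaled, and on that scale the median gene was itself shifted by 0.18 (log2) towards SETD2 C. There 34.6% of all genes tested were called higher than in KO and 7% lower (limma). After scaling, H2AFZ, H2AFY and H3F3A lay below both KO libraries, and the groups of H1FX overlapped. No share of all genes so separated was computed.

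Between WT and KO, 1 of the 10 genes was called, H3F3B, which was lower in WT. Its level was 334 and 357 TPM in WT and 512 and 500 in KO. Both WT libraries lay below both KO libraries, and the log2 fold change was -0.42 (SE 0.083, adjusted p = 0.0441, limma with Benjamini-Hochberg adjustment over 14740 genes). After scaling the groups also did not overlap for H2AFV, H1F0, H1FX and CENPA, all higher in WT. How many of all genes were so separated was not computed. A gene was called at an adjusted p of at most 0.05, and 3.17% of all genes tested were higher in WT and 1.32% lower by that rule. When a 2-fold change was also asked for, 1.36% of genes were called, and none of the variant histone genes. The call for H3F3B was lost in the fits without KO 1 (adjusted p = 0.187, limma), without KO 2 (0.244) and with no filter on low TPM (0.134). Counted over all genes, calls in WT split into 467 up and 194 down with scaling and 359 up and 410 down without it, where the median of all genes moved to -0.11 and H3F3B stood at -0.44 relative to it. H3F3A, which encodes the same protein, was at 718 and 801 TPM in WT and at 824 and 869 in KO, with a log2 fold change of -0.028 after scaling and a 95% interval from -0.24 to 0.18. H1FX had the largest positive difference, 0.18 (adjusted p = 0.192 by limma). The median over the 10 genes was 0.011, against 0.0058 over all genes tested.

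**Figure D2:**
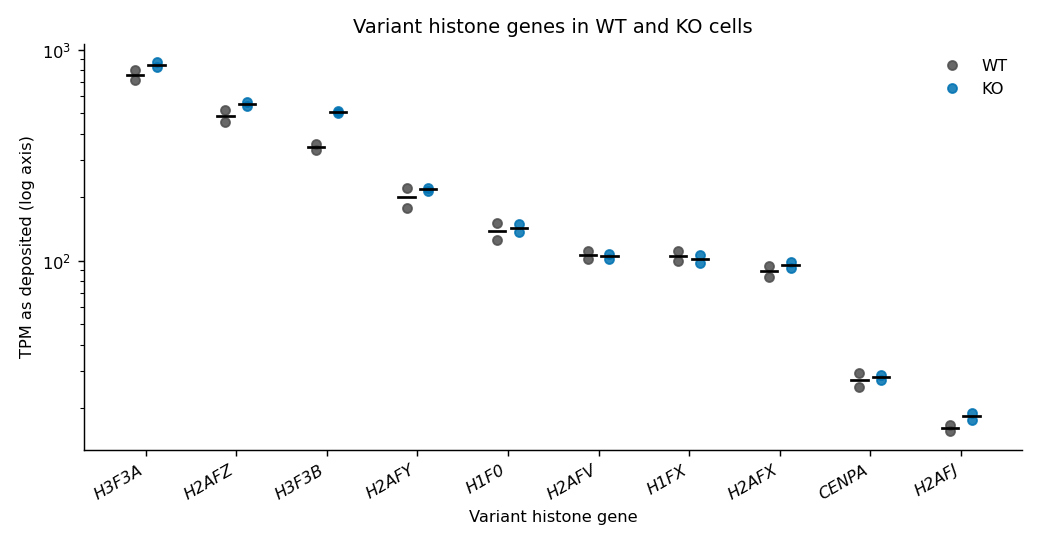
TPM as deposited (log axis) of the 10 variant histone genes in the 4 libraries of batch 1, ordered by their mean in KO; points are libraries and bars are group means (n = 2). H3F3B has the widest separation between WT (334 and 357 TPM) and KO (512 and 500 TPM). H2AFZ, H3F3A and H2AFJ also lie lower in WT without overlap, and the groups of the remaining genes overlap. These TPM are unscaled, and on that scale the median gene was itself shifted by -0.11 (log2) in WT against KO. After scaling, the groups of H2AFZ, H3F3A and H2AFJ overlapped. H2AFV, H1F0, H1FX and CENPA then lay higher in WT without overlap. No share of all genes so separated was computed.

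None of the 10 genes was called between SETD2 FL and KO by limma, where 0.176% of 15928 genes were higher and 0.0314% lower, and 0.0816% were called with a 2-fold change. An unadjusted p under 0.05 was reached by H1F0 and H1FX, and by 15.9% of all genes tested. H1F0, the gene of the linker histone H1.0, which accumulates in differentiated and resting cells, was at 211 and 214 TPM in KO and at 162 and 183 with SETD2 FL. Its log2 fold change was -0.32 (SE 0.065, adjusted p = 0.123, limma with Benjamini-Hochberg adjustment). H1FX, the gene of the linker histone H1.X, was at 233 and 262 TPM in KO and at 202 and 218 with SETD2 FL. The log2 fold change was -0.25 (SE 0.066, adjusted p = 0.165). For both linker genes the SETD2 FL libraries lay below the KO libraries, but neither difference passed the threshold. After scaling the groups also did not overlap for H2AFV and H2AFX, lower with SETD2 FL, and for H2AFY and CENPA, higher with it. The share over all genes was not computed. The other 8 genes had log2 fold changes from -0.12 (H2AFJ) to 0.078 (CENPA). For H3F3A the 95% interval ran from -0.16 to 0.079, and for H2AFZ from -0.081 to 0.15.

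Between SETD2 C and KO, H1F0 and H2AFJ rose, and H2AFZ fell with median-ratio scaling but was not called with the other scalings tried. By limma, 21.1% of all genes tested were higher with SETD2 C and 15.1% lower, and 4.06% were called with a 2-fold change, so 2 of 10 higher and 1 of 10 lower is close to or below the background. The direction of calls over all genes depended on the scaling: 3357 genes were higher and 2404 lower with median-ratio scaling, 5506 and 1115 with TPM left unscaled, and 2456 and 2785 with quantile normalization. H1F0 (chromosome 22, 37805229 to 37807432, plus strand) was at 211 and 214 TPM in KO and at 408 and 452 with SETD2 C. Its log2 fold change was 0.87 (SE 0.065, adjusted p = 0.00013, limma with Benjamini-Hochberg adjustment), and it was called in all 14 alternative fits, with values from 0.80 to 1.02. H2AFJ (chromosome 12, 14774405 to 14778002, plus strand) was at 20.8 and 21.7 TPM in KO and at 31.9 and 32.8 with SETD2 C, a log2 fold change of 0.45 (SE 0.10, adjusted p = 0.0134). For both genes, each SETD2 C library lay above each KO library. After scaling the groups also did not overlap for the other members except H1FX, though not all of these were higher with SETD2 C. The share of all genes without overlap was not computed. The call for H2AFJ was lost without KO 2, without SETD2 C 2 and with no filter, at an adjusted p of up to 0.0661.

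H2AFZ (chromosome 4, 99948086 to 99950355, minus strand) was at 943 and 921 TPM in KO and at 902 and 925 with SETD2 C, so that the groups overlapped before scaling. After scaling its log2 fold change was -0.18 (SE 0.050, adjusted p = 0.027, limma with Benjamini-Hochberg adjustment). The call was lost in 9 of 14 alternatives, among them every other scaling, and the value without scaling was -0.029. Without scaling the median of all genes shifted to 0.18 and with mitochondrial genes and SETD2 left out of the sum to 0.13, and relative to those medians H2AFZ stood at -0.21 under both. With quantile normalization it stood at -0.073 (adjusted p = 0.341, limma), or -0.048 relative to the median. The other 7 genes were not called. H2AFX, CENPA, H3F3B and H2AFV had positive log2 fold changes of 0.13, 0.14, 0.16 and 0.070, and H3F3A, H2AFY and H1FX lay between -0.068 and -0.0064. The median over the 10 genes was 0.10, against 0.046 over all genes tested. H1FX was at 233 and 262 TPM in KO and at 273 and 272 with SETD2 C, with a 95% interval of the scaled log2 difference from -0.16 to 0.15.

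**Figure D3:**
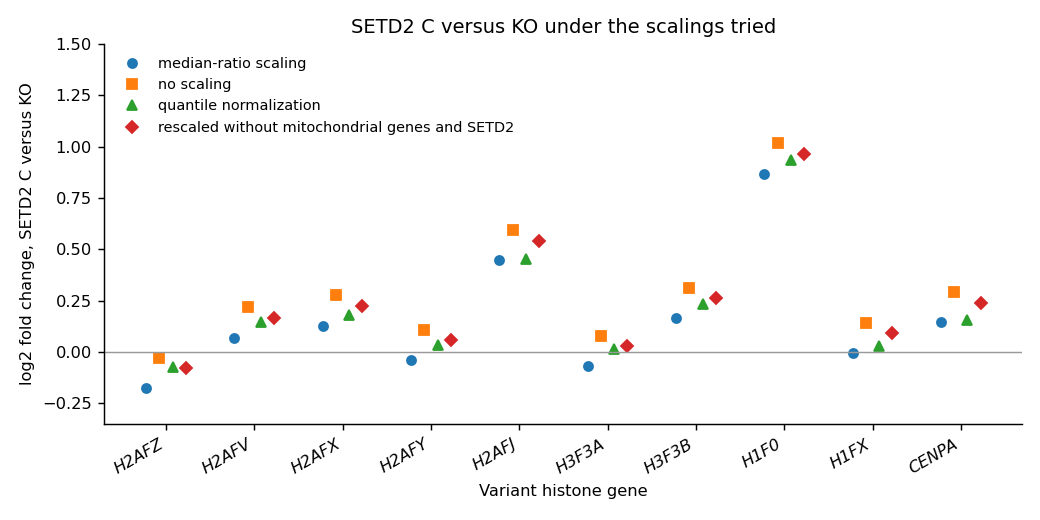
Log2 fold change of SETD2 C versus KO for the 10 variant histone genes (points) under median-ratio scaling, no scaling, quantile normalization and TPM rescaled without mitochondrially encoded genes and SETD2. H1F0 lies between 0.87 and 1.02 and H2AFJ between 0.45 and 0.59 under these scalings, and H2AFZ lies between -0.18 and -0.029.

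The scaling also set how many genes were called with SETD2 C. Without scaling and with TPM rescaled without mitochondrial genes and SETD2, 6 of the 10 genes were called higher than in KO and none lower, where 34.6% and 28.5% of all genes tested were higher and 7% and 9.18% lower. The genes added were H2AFV, H2AFX, H3F3B and CENPA, whose adjusted p (limma) lay between 0.0115 and 0.0362 in these fits. As the median of all genes was itself shifted by 0.18 and 0.13 there, these genes stood only 0.033 to 0.13 above it. H1F0 stood 0.84 and 0.83 above those medians.

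Setting SETD2 C against SETD2 FL compares cells that were both transfected. The SETD2 transcript was itself 2.75-fold higher with SETD2 C (log2 fold change 1.46, adjusted p = 7.09e-06, limma). The paper, in contrast, reports that mRNA of the constructs did not differ significantly. The form of SETD2 and the level of its transcript cannot be told apart in this contrast. Here 4 of the 10 genes were higher with SETD2 C and 1 was lower, where 21.4% of all genes tested were higher and 16.8% lower, and 1 of 10 was called with a 2-fold change, where 3.79% were. A share of 4 in 10 is above the background, but 10 genes are few and that excess was not tested. Calls over all genes split into 3408 up and 2675 down with median-ratio scaling, 5189 up and 1508 down with none, where the median of all genes was 0.16, and 2699 up and 3066 down with quantile normalization. H1F0 was at 162 and 183 TPM with SETD2 FL and at 408 and 452 with SETD2 C, which was 2.28-fold higher (log2 fold change 1.19, SE 0.065, adjusted p = 2.61e-05, limma with Benjamini-Hochberg adjustment). H2AFJ was at 21.8 and 17.9 TPM with SETD2 FL and at 31.9 and 32.8 with SETD2 C, a log2 fold change of 0.57 (SE 0.10, adjusted p = 0.00454). Both were called in all 14 alternatives, and no library of one group reached into the other. After scaling the groups also did not overlap for the other members except H3F3A and CENPA, and the share over all genes was not computed. H1FX, at 202 and 218 against 273 and 272 TPM, rose by 0.25 (SE 0.066, adjusted p = 0.0208), and H2AFX, at 67.9 and 73.0 against 91.7 and 88.6 TPM, by 0.23 (SE 0.063, adjusted p = 0.0245, limma). H2AFZ, at 926 and 1011 against 902 and 925 TPM, fell by 0.21 on the log2 scale (SE 0.050, adjusted p = 0.0129, limma). The calls for H1FX, H2AFX and H2AFZ were each lost when 1 of several libraries was left out, H1FX and H2AFX without SETD2 FL 3 and without either SETD2 C library, and H2AFZ without SETD2 FL 4 and without SETD2 C 1. H2AFX was also lost without SETD2 FL 4. The call for H2AFZ was also lost without scaling, at -0.083 (adjusted p = 0.326, limma), and with quantile normalization, at -0.15 (0.0663). H3F3A (log2 fold change -0.026, 95% interval -0.15 to 0.094), H3F3B (0.10), H2AFV (0.11), H2AFY (-0.074) and CENPA (0.067) were not called. H2AFV was called without scaling, at 0.24 (adjusted p = 0.0114, limma), and with quantile normalization, at 0.20 (0.0206). The comparisons of each construct with KO share their KO libraries and are given side by side: H1F0 stood at -0.32 with SETD2 FL and at 0.87 with SETD2 C.

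**Figure D4:**
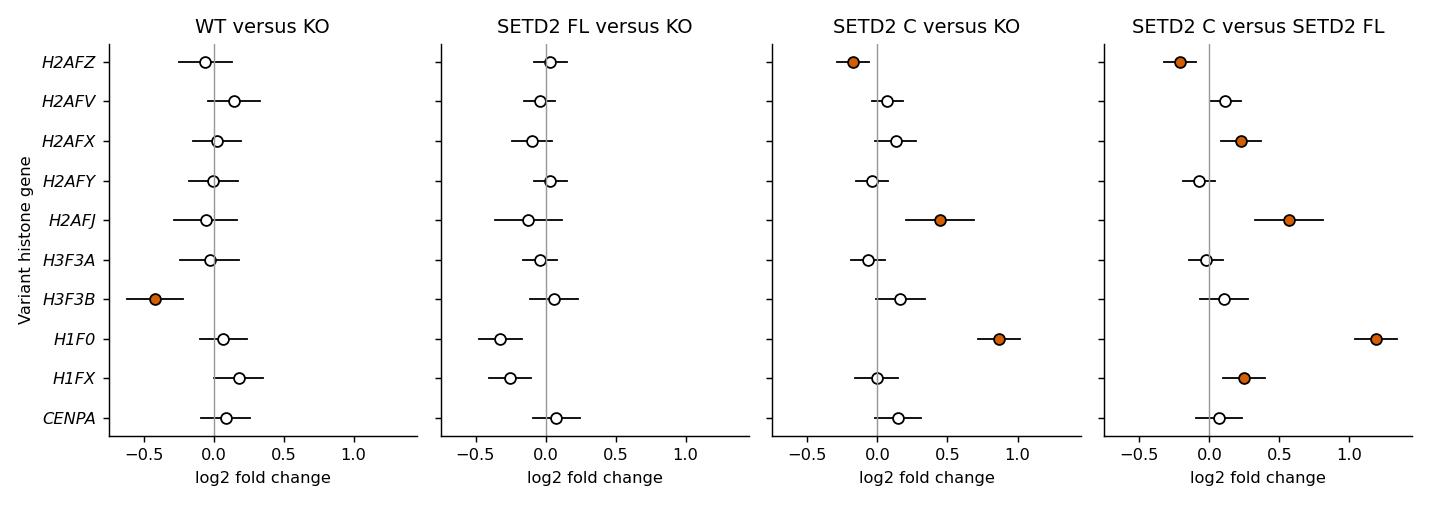
Log2 fold change (points) with its 95% interval (bars) from limma for the 10 variant histone genes in the 4 comparisons; filled points passed an adjusted p of 0.05. H1F0 stands at 0.87 for SETD2 C versus KO and at 1.19 for SETD2 C versus SETD2 FL, and H3F3B is the only filled point in WT versus KO, at -0.42.

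H1FX lies beside an antisense gene, H1FX-AS1 (chromosome 3, 129315392 to 129326225, plus strand), which overlaps the H1FX span from 129314771 to 129316286 on the minus strand. Whether strand was used when reads were assigned is not given in the sources used here, and without it reads from the pair cannot be told apart. H1FX-AS1 was not called in any comparison, and its means were 9.15 TPM in KO, 7.62 with SETD2 FL and 9.69 with SETD2 C in batch 2.

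Ratios between related genes within a library do not depend on the scaling between libraries. For H1F0 to H1FX the ratio was 0.904 and 0.817 in KO, 0.801 and 0.838 in SETD2 FL libraries and 1.496 and 1.66 in SETD2 C libraries. The log2 ratio was 0.88 higher with SETD2 C than in KO, and 0.94 higher than with SETD2 FL. For H2AFV to H2AFZ, whose products differ at 3 of 127 residues, the ratio was 0.161 and 0.160 in KO, 0.154 and 0.150 in SETD2 FL libraries and 0.190 and 0.191 in SETD2 C libraries. The log2 ratio was 0.25 higher with SETD2 C than in KO, where the SD within the groups was 0.0047 and 0.011. It was also higher in WT than in KO of batch 1, at 0.224 and 0.215 against 0.190 and 0.190, a log2 difference of 0.21. For H3F3B to H3F3A the ratio was 0.466 and 0.445 in WT against 0.621 and 0.576 in KO of batch 1, which was 0.39 lower in WT on the log2 scale. In batch 2 the KO libraries were spread from 0.658 to 0.778 and the SETD2 C libraries stood at 0.811 and 0.870. Over 12 such comparisons, 3 ratios in 4 pairs of groups, the exact two-sided permutation test gave p = 0.33 or 0.67, and 0.33 is the smallest it can give for 2 libraries against 2, so that no ratio could pass a threshold of 0.05.

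**Figure D5:**
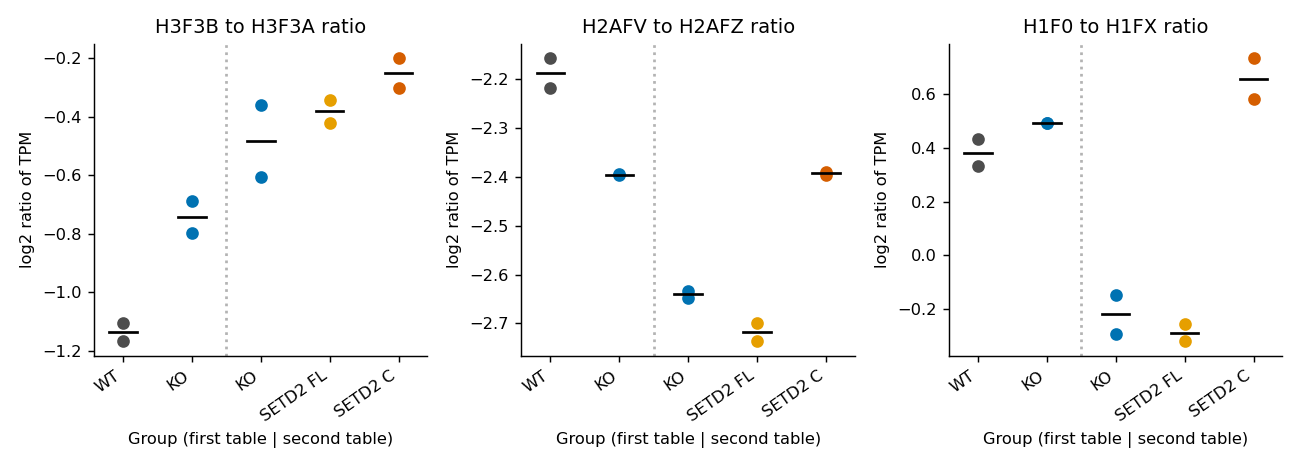
Log2 ratio of TPM of H3F3B to H3F3A, H2AFV to H2AFZ and H1F0 to H1FX in each library (points) with group means (bars); the dotted line separates batch 1 (left) from batch 2. The H1F0 to H1FX ratio stands at 0.58 and 0.73 with SETD2 C, above -0.15 and -0.29 in KO of the same batch, and the H2AFV to H2AFZ ratio stands higher with SETD2 C than in KO or with SETD2 FL.

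The summed TPM of the 10 genes was 3038 ± 22.9 in KO of batch 2 (SD, n = 2), 3016 ± 200 with SETD2 FL and 3496 ± 52.5 with SETD2 C. After scaling the sums were 3159, 3091 and 3280, so the difference between SETD2 C and KO was smaller after scaling. The 2 linker genes gave 460 ± 22.9 TPM in KO, 382 ± 26.5 with SETD2 FL, 703 ± 30.3 with SETD2 C, and 478, 392 and 659 after scaling. The pair of H2A.Z genes gave 1082 ± 19.8 TPM in KO and 1088 ± 19.5 with SETD2 C, and 1125 ± 13.0 and 1020 ± 14.2 after scaling.

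Genes that deposit or read the variants were also examined. Of 34 such genes, all tested, 2 were higher and 8 lower with SETD2 C than in KO (limma), where 21.1% of all genes were higher and 15.1% lower, with a median log2 fold change of -0.076 against 0.046 over all genes. HIRA, the chaperone of H3.3, fell by 0.52 on the log2 scale (adjusted p = 0.00595, limma), the only one of the 7 H3.3 chaperone genes called. ATRX (0.15) and CABIN1 (-0.088) followed by adjusted p. Of the 8 genes of H2A.Z exchange, VPS72, an H2A.Z-binding subunit of the SRCAP and TIP60 complexes, EP400 and INO80 fell by 0.30, 0.43 and 0.51, and ANP32E, which removes H2A.Z, rose by 0.30 (adjusted p = 0.0235, limma). ANP32E was named after its value was seen. HJURP, the chaperone of CENP-A, rose by 0.45 (adjusted p = 0.00235), while CENPC and CENPA itself were not called (log2 fold changes of 0.27 and 0.14). Of the 6 genes that phosphorylate or read H2A.X, the kinases PRKDC and ATR and the reader TP53BP1 fell by 0.52, 0.41 and 0.29. Of the 7 general histone chaperones, SUPT16H, a subunit of FACT, fell by 0.23, and ASF1B and SSRP1 stood at -0.13 and -0.12, not called. All these values are after median-ratio scaling. Before scaling the SUPT16H libraries overlapped (140 and 129 TPM in KO, 123 and 131 with SETD2 C). The means of ASF1B and SSRP1 were then slightly higher with SETD2 C. For HIRA, VPS72, EP400, INO80, PRKDC, ATR and TP53BP1 both SETD2 C libraries lay below both KO libraries before scaling too. The share of all genes so separated was not computed. None of these 34 genes was called with SETD2 FL against KO or in WT against KO by limma, where 2 and 8 of them had an unadjusted p under 0.05, as did 15.9% and 24.9% of all genes. Against SETD2 FL, 2 were higher with SETD2 C and 11 lower, where 21.4% and 16.8% of all genes were. Among 10 other variant histone genes, only H2AFY2, encoding macroH2A2, could be tested in batch 2, and it fell by 0.51 with SETD2 C (adjusted p = 0.0015, limma), where H2AFY stood at -0.039.

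Replication-dependent histone genes are given for reference, since the libraries were made with ribosomal RNA depletion and poly(A) enrichment and their mRNAs mostly lack a poly(A) tail. Of 89 such genes, 35 could be tested in batch 2. With SETD2 C against KO, 21 of them were higher and none lower (limma), where 21.1% and 15.1% of all genes were, with a median log2 fold change of 0.79 against 0.046. Against SETD2 FL, 17 were higher and none lower, where 21.4% and 16.8% of all genes were. None was called with SETD2 FL against KO, where 8 had an unadjusted p under 0.05 (15.9% of all genes), and none of the 24 tested in batch 1 was called between WT and KO by limma, where 4 did (24.9% of all genes). The filter on low TPM asked for 2 libraries, which is the size of each group. A replication-dependent gene could therefore be tested through the SETD2 C libraries alone, and would then tend to be higher there. The same holds for the KO libraries in the other direction. How many genes entered in either way was not counted, which limits the split of 21 to none and the median of 0.79. H2AFX, whose mRNA can end in a stem-loop or in a poly(A) tail, stood at 0.13 with SETD2 C against KO, below this median. The part that poly(A) tails play in the values of H1F0, H2AFJ and H2AFX was not tested.

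RefSeq promoter windows, from 250 before to 50 after a start (GRCh38.p14), were found for 9 of the 10 genes. Windows were searched on both strands for CCAAT and TATAAA, which do not overlap each other. CCAAT was found for 8 of the 9 genes, all but H1FX, and in 34.6% of all 35116 windows. TATAAA was found for 4, H2AFZ, H2AFX, H3F3B and H1FX, and in 11.5% of windows. ACGTG was also searched for, and was found for 3 of the 9 genes and in 21.4% of windows. A gene counted if any of its windows matched, and H3F3A has 4 windows and H2AFY 2. Shares over all windows are per window, so the counts by gene are not on the same footing. The 250 bases before the start are shown for H2AFJ (chr12:14774155-14774404, plus strand) and H2AFZ (chr4:99950276-99950525, minus strand), whose scaled log2 fold changes with SETD2 C against KO were 0.45 and -0.18, the latter called with median-ratio scaling alone among the scalings tried. Matches to CCAAT and TATAAA are in capitals.
H2AFJ: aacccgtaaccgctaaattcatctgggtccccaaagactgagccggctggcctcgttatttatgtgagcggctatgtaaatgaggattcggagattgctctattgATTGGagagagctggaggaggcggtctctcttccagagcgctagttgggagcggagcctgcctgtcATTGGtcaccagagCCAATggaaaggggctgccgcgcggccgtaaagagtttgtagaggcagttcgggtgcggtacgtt
H2AFZ: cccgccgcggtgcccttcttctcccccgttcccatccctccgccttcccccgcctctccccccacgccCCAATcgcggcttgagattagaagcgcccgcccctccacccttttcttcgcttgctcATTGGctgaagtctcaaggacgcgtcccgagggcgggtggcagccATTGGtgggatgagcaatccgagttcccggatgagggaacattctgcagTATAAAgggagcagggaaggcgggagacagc
Both stretches hold 3 CCAAT matches (ATTGG on the other strand), and H2AFZ also holds 1 TATAAA just before its start. A match is a run of letters and not a measured site.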

How the data were processed

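RNA-seq of 10 libraries was used. The 14 ChIP-seq samples were not analysed here. Per the study's methods and processing notes, the authors aligned paired reads to hg38 with STAR 2.6.1c and estimated expression with RSEM 1.3.0. They deposited TPM per gene, not normalized between libraries, so library depth is unknown. The authors' own tests on counts were not used. Libraries were brought to one scale by median ratios, taken over genes at or above 1 TPM throughout, and log2(scaled TPM + 0.5) was tested with limma 3.58.1 in R 4.3.3 (eBayes with trend). Fold changes on this scale understate those of low genes. Genes at or above 0.5 TPM in 2 or more libraries, protein-coding or lncRNA in GENCODE 44 on GRCh38, were tested, and all 10 variant histone genes passed in both batches. The 6 libraries of batch 2 shared 1 fit. The threshold was a Benjamini-Hochberg adjusted p of 0.05. The members and lists were chosen with earlier results of these data known. All 10 members were named. From each other list, genes called with a 2-fold change were named, otherwise the 3 with the lowest adjusted p in SETD2 C versus KO. One gene that this rule names is not reported here. For the replication-dependent histone genes only counts and medians were given. The procedure was tested on simulated data. Positions, transcripts and coding sequences came from GENCODE 44, promoters from RefSeq. Alternatives were other pseudocounts, filters, scalings and gene types, eBayes without trend, a replicate block in batch 1, a fit of only the groups compared, and each library left out.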

Additional observations from a re-analysis of the deposited data

Results flagged for a closer look

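For 5 variant histone genes the effect of SETD2 C differed from that of SETD2 FL by a test of the difference, which is the direct comparison of the constructs because both effects are taken against the same KO libraries (limma with Benjamini-Hochberg adjustment). Such differences were common, as 21.4% of all genes tested were called higher with SETD2 C and 16.8% lower. The effect of SETD2 C minus that of SETD2 FL was 1.19 on the log2 scale for H1F0 (adjusted p = 2.61e-05), with -0.32 for SETD2 FL and 0.87 for SETD2 C against KO. It was 0.57 for H2AFJ, where the effects were -0.12 and 0.45. It was 0.25 for H1FX, where the effects were -0.25 and -0.0064. It was 0.23 for H2AFX, where they were -0.097 and 0.13. It was -0.21 for H2AFZ, where they were 0.034 and -0.18, and this call was lost in 5 of 14 alternatives, among them no scaling (-0.083) and quantile normalization (-0.15). The calls for H1FX and H2AFX were lost in 5 and 6 of 14 alternatives, and those for H1F0 and H2AFJ in none of the 14. With 2 libraries in each group, no group was large enough to be searched for a single library far from the others.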

How the results depend on the processing

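For SETD2 C against KO, the 3 calls became 1 with no filter and 6 both without scaling and with TPM rescaled without mitochondrial genes and SETD2 (all higher), and lay between 1 and 2 when a library was left out. For SETD2 C against SETD2 FL, the 5 calls became 3 with no filter and 2 in eBayes without trend, and lay between 2 and 3 when a library was left out. For WT against KO, the single call became 0 with no filter, with all gene types and in eBayes without trend, and lay between 0 and 1 when a library was left out. For SETD2 FL against KO the count was 0 in every alternative run. Of the 34 deposition genes, the 10 calls for SETD2 C against KO became 6 with no filter and 6 to 8 with a library left out, and the 13 against SETD2 FL became 6 in eBayes without trend and 5 to 9 with a library left out. Between WT and KO they went from 0 to at most 1 with a library left out. Over all genes, calls for WT against KO went from 661 to 86 with no filter, 429 with all gene types, 413 in eBayes without trend and 156 to 1238 with a library left out (1238 without WT 2). Those for SETD2 FL against KO went from 33 to 3 with no filter, 58 without scaling, 60 rescaled, 7 with all gene types, 10 in eBayes without trend and 2 to 9 with a library left out. Those for SETD2 C against KO went from 5761 to 3836 without KO 4, 3788 without SETD2 C 1 and 3063 without SETD2 C 2, and those against SETD2 FL from 6083 to 3436 without SETD2 C 2. The cause of these moves was not tested. The summed TPM of the 10 genes moved with scaling to 2496 in KO of batch 1, 3159 in KO of batch 2 and 3280 with SETD2 C.

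Only genes that were not called changed sign. For SETD2 C against KO, without scaling, with quantile normalization and with the rescaled TPM, H1FX went to 0.14, 0.032 and 0.091, H2AFY to 0.11, 0.036 and 0.058, and H3F3A to 0.080, 0.017 and 0.029. Against SETD2 FL, H2AFY went to 0.054 without scaling and 0.0078 with quantile normalization, and H3F3A to 0.10 without scaling and 0.0070 rescaled. For SETD2 FL against KO, H2AFV went to 0.021 rescaled, and H3F3A to 0.017 with quantile normalization and 0.022 rescaled. For WT against KO, without scaling, CENPA went to -0.041, H1F0 to -0.061 and H2AFX to -0.10, and with quantile normalization H2AFY went to 0.038 and H3F3A to 0.018. With a library left out, the ranges that crossed 0 were -0.099 to 0.083 for H1FX in SETD2 C against KO, -0.0098 to 0.14 for CENPA and -0.060 to 0.0057 for H3F3A in SETD2 C against SETD2 FL, -0.29 to 0.044 for H2AFJ, -0.00086 to 0.069 for H2AFZ and -0.031 to 0.15 for H3F3B in SETD2 FL against KO, and -0.13 to 0.014 for H2AFJ, -0.017 to 0.062 for H2AFX, -0.039 to 0.036 for H2AFY and -0.081 to 0.022 for H3F3A in WT against KO. A fit that leaves a group with 1 library assumes that it varies like the other groups.

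WT and KO of batch 1 share the replicate numbers 1 and 2, and deviations of same-numbered libraries had a Pearson correlation of 0.147 across 14740 genes, which are not independent replicates. With 2 pairs this does not establish pairing. With the replicate block, limma gave an adjusted p of 0.0301 for H3F3B (log2 fold change -0.42), still 1 call among the variant histone genes, and 1269 calls over all genes against 661 without it. No paired analysis was possible in batch 2 because the groups compared share fewer than 2 replicate numbers. No direction of the 12 ratio differences changed with a pseudocount or with pseudogenes added. TPM gives no depth, so 2 libraries a group set the precision.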
